A study of Mus musculus with 6 samples.

Results

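The Snord14 family encodes U14, a C/D box small nucleolar RNA (snoRNA). Its 4 members, Snord14a, Snord14c, Snord14d and Snord14e, were every feature whose position matched a GENCODE M21 or RefSeq gene named Snord14 plus 1 letter, out of 1823 features listed in at least 1 library. All 4 were listed in every library and passed the filter on low counts. The libraries came from bone marrow cells of mice that carried a maternal knockout (KO, n = 3) and of wild-type mice (WT, n = 3). The series' design text names the cells as lineage-negative, the fraction depleted of mature blood cells, and its title names the Dlk1-Gtl2 imprinted locus, here taken as the locus of the mutation. The sources used here do not give the deleted stretch, the strain, the age of the mice or whether each library was 1 animal. The p-values therefore measure the spread between libraries, which may be technical.

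C/D box snoRNAs carry a C box near the 5′ end and a D box near the 3′ end, which bind a core of proteins including the methyltransferase fibrillarin. The stretch just before a D box pairs with a target RNA and places a methyl group on the ribose of 1 base. U14 stands apart from most of this class because, in yeast, it is needed for the production of the 18S ribosomal RNA (rRNA) of the small subunit as well as for methylation of that rRNA. In mammals it is cut out of introns, so its supply is tied to the transcription and splicing of host genes.

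The sequences show how far reads of the members can be told apart and what the members share. They are the GENCODE M21 transcripts on GRCm38, written as DNA from 5′ to 3′. Capitals mark the C box TGATGA, then a run of 14 bases common to all 4 members with the D box CTGA directly after it.
Snord14a: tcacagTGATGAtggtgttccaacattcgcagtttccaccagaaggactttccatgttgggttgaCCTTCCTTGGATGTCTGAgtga
Snord14c: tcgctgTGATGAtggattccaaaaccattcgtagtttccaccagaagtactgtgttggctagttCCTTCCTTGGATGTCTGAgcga
Snord14d: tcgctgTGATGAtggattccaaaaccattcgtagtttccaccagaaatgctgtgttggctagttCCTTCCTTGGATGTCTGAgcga
Snord14e: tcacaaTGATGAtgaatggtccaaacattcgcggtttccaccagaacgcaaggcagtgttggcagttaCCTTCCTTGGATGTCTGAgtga

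Snord14c and Snord14d were near-identical. Both have 86 nt, and counted from the 5′ end of Snord14c they differ by G47A and A49G, an identity of 97.7%. A read that misses both positions cannot be assigned to 1 of the pair, and the sources used here do not say how reads with several matches were counted. The other pairs were 77.0% to 82.2% identical. Outside the family the closest listed feature reached 63.8% identity, so no near copy of a member was among the other features.

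The run CCTTCCTTGGATGT before the D box was kept in all 4 members, and so was the run GTTTCCACCAGAA further upstream. On the RNA strand each was found in 4 of 489 annotated snoRNAs of 66 to 110 nt (0.8%), which are the members themselves. On the other strand both were found in 0 of the 489. Base 5 before the D box, the place that faces the methylated base in this class, was G in every member. A TGATGA in the first 15 bases with a CTGA in the last 15 was common, with 279 of the 489 snoRNAs (57.1%) holding the pair on the RNA strand, the only strand searched for it. The first and last 4 bases, which lie outside the boxes, can pair in all 4 members. In Snord14c and Snord14d the run of pairs reaches 5, but the added pair uses the last base of the D box.

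The family sits in the introns of 2 protein-coding genes. Hspa8, which encodes the constitutive chaperone Hsc70, holds Snord14c in intron 5 (chr9:40803583-40803668), Snord14d in intron 6 (chr9:40803995-40804080) and Snord14e in intron 8 (chr9:40804748-40804837), all on the plus strand and counted in isoform Hspa8-201. Rps13, which encodes a protein of the small ribosomal subunit, holds Snord14a in intron 3 of isoform Rps13-201 (chr7:116333171-116333257, minus strand). The Hspa8 introns have 210 to 236 nt and the Rps13 intron has 597 nt. From the end of the snoRNA to the next exon there were 71 nt for Snord14c, 84 nt for Snord14d, 94 nt for Snord14e and 72 nt for Snord14a. Other annotated isoforms of both hosts keep these introns in an exon. The messenger RNAs of the hosts were not analysed here.

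**Figure D1:**
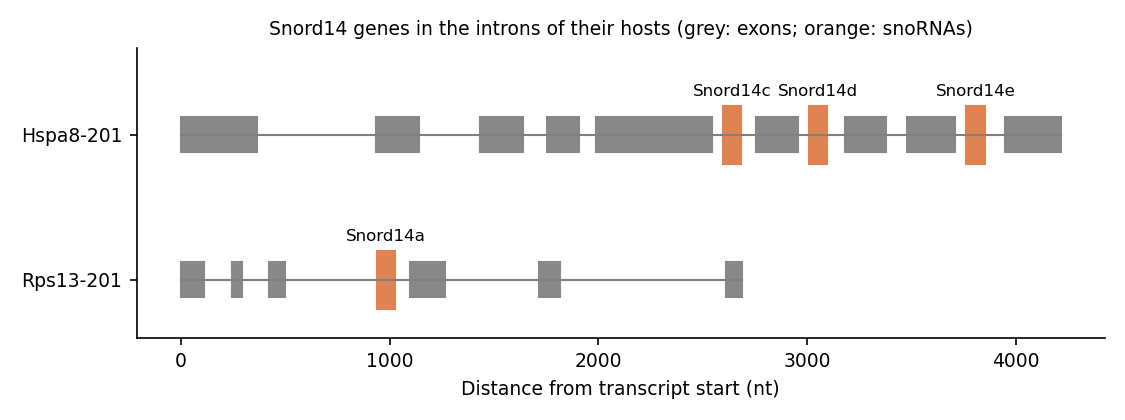
Position of the 4 Snord14 genes (orange) among the exons (grey) of isoforms Hspa8-201 and Rps13-201, with the distance from the transcript start in nt on the x axis. Hspa8 holds 3 members in introns 5, 6 and 8, and Rps13 holds 1 in intron 3.

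Libraries held 47299957 to 51837721 counts in KO and 45398303 to 53299322 counts in the WT group. DQ267100, a snoRNA of the imprinted locus, had 0 to 2 reads in KO and 51 to 59 reads in WT libraries. The blood miRNA features Mir142 and Mir223 together had 750 to 1203 reads in KO and 516 to 959 reads in WT libraries. The stem cell and endothelial Mir126a had 274 to 821 reads in KO and 29 to 245 in WT libraries. The B lymphoid Mir150 had 194 to 288 in KO and 37 to 145 in WT libraries. Both were without overlap, also in CPM, as were 2.72% of the 624 features tested in the same direction. Neither was called by edgeR (adjusted p = 0.71 for each). The erythroid Mir144 had 8 to 39 reads in KO and 8 to 12 in WT libraries. No feature carried the name Mir451a, but Mir451b, outside the marker list, lay close to Mir144. It averaged 3.852 CPM in KO and 1.771 CPM in WT libraries, with overlap, and was not called (edgeR, adjusted p = 0.73). Of markers of other tissues, 4 muscle miRNA features summed to 3, 754 and 12 reads in KO replicates 1 to 3, against 5, 16 and 17 reads in WT replicates 1 to 3. Mir122 of liver had 0, 1 and 0 reads in KO and 20, 23 and 0 in WT libraries, and 1 read in all fell on the neuronal Mir124a features. KO replicate 2 also differed from the other libraries by the annotated length of features. Its median deviation from the 6-library mean of each feature (log2 CPM) was 0.40 for 29 other features of 86 to 90 nt. This is the length range of the 4 members. For 93 features of 160 to 350 nt the deviation was -0.64. WT replicate 1 deviated the other way, at -0.31 for the 29 features and 0.14 for the 93. The part of these markers and of the length differences in the results was not tested.

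Snord14d was the most abundant member. It had 600.3, 727.6 and 777.7 CPM (the count scaled by the library total) in KO replicates 1 to 3, against 584.0, 590.2 and 648.3 CPM in WT replicates 1 to 3. KO replicates 2 and 3 lay above all WT libraries, and KO replicate 1 lay within the WT range, so the genotypes overlapped. The means were 701.9 ± 91.4 CPM in KO and 607.5 ± 35.5 CPM in WT libraries (SD, n = 3 each). The log2 fold change of KO over WT was 0.27 (SE 0.13), a ratio of 1.21 with a 95% interval of 0.973 to 1.49. It was not called by edgeR's quasi-likelihood test (adjusted p = 0.71, unadjusted p = 0.0772). In bulk RNA, a different share of cells and a different amount of RNA per cell cannot be told apart.

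Snord14c followed the same pattern at a lower level. It had 400.5, 516.2 and 527.4 CPM in KO replicates 1 to 3, against 396.5, 383.1 and 425.6 CPM in WT replicates 1 to 3. Again KO replicates 2 and 3 were the highest of the 6 libraries and KO replicate 1 fell among the WT values. The means were 481.4 ± 70.2 CPM in KO and 401.7 ± 21.7 CPM in WT libraries (SD, n = 3 each). The log2 fold change was 0.32 (SE 0.14), a ratio of 1.25 with a 95% interval of 0.988 to 1.58, and it was not called (edgeR, adjusted p = 0.71, unadjusted p = 0.0599). Without KO replicate 1 the log2 fold change was 0.51 for Snord14c and 0.44 for Snord14d, with adjusted p of 0.193 and 0.198 by edgeR. In that fit the median over 353 other features of 66 to 110 nt was 0.22. Since Snord14c and Snord14d differ at 2 bases, their agreement across libraries cannot be taken as that of 2 separately measured RNAs. How many reads could be assigned to 1 of the pair was not tested.

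Snord14e, from the most downstream of the 3 Hspa8 introns, had a far lower level and did not share that pattern. It had 56.21, 52.28 and 65.31 CPM in KO replicates 1 to 3, against 69.10, 57.25 and 62.08 CPM in WT replicates 1 to 3. The highest library was WT replicate 1 and the lowest KO replicate 2, with the others mixed. The means were 57.93 ± 6.68 CPM in KO and 62.81 ± 5.96 CPM in WT libraries (SD, n = 3 each). The log2 fold change was -0.05 (SE 0.18), a ratio of 0.963 with a 95% interval of 0.720 to 1.29 (edgeR, adjusted p = 0.941). Its sign depended on the scaling and was positive, at 0.05, with RLE size factors.

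Snord14a, the only member in Rps13, was the rarest. It had 23.60, 14.43 and 18.60 CPM in KO replicates 1 to 3, against 16.45, 16.34 and 20.60 CPM in WT replicates 1 to 3. KO libraries gave both the highest and the lowest value, so the WT range lay inside the KO range. The means were 18.88 ± 4.59 CPM in KO and 17.80 ± 2.43 CPM in WT libraries (SD, n = 3 each). The log2 fold change was 0.15 (SE 0.27), a ratio of 1.11 with a 95% interval of 0.716 to 1.73 (edgeR, adjusted p = 0.876). Counting error was small beside this spread: the lowest library had 742 reads, with an exact 95% Poisson interval of 690 to 797.

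**Figure D2:**
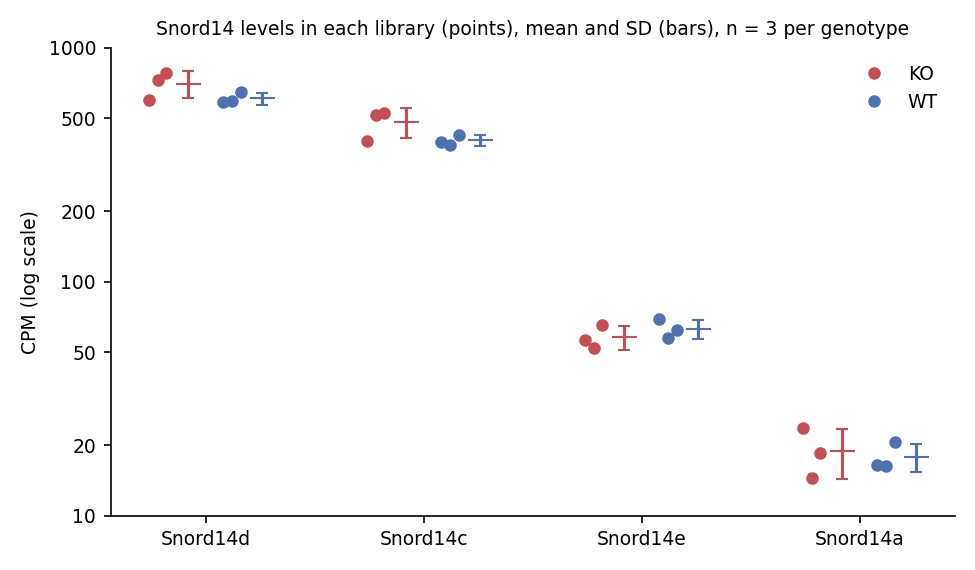
CPM of each Snord14 member in every library (points; KO left of WT, log axis) with the mean and SD of 3 libraries. In every library Snord14d lies above Snord14c, Snord14c above Snord14e and Snord14e above Snord14a, and the KO and WT points overlap for every member.

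None of the 4 members was called in either direction, at a background of 0.160% of the 624 features tested (1 feature, adjusted p under 0.05, edgeR). At an unadjusted p under 0.05 edgeR also gave 0 of 4, at a background of 6.41%, and DESeq2 gave 2 of 4 (Snord14c and Snord14d), at a background of 7.40%, with none after adjustment. The CPM of KO and WT libraries overlapped for all 4 members, while 15.2% of tested features had no overlap, 2.72% with higher and 12.5% with lower values in KO libraries. Estimates were above 0 for 3 of 4 members, against 40.9% of all tested features, and the 624 features tested had a median of -0.08 on the log2 scale. Of these 3 members, Snord14c and Snord14d are near-identical and cannot be counted as separately measured RNAs. Among the 137 other tested snoRNAs of 66 to 110 nt the median log2 fold change was 0.01. Of these, 71 were above 0, 6 above Snord14c and 12 above Snord14d. Over all 323 other tested features of that length, of any RNA type, the median was 0.10. The 29 other features of 86 to 90 nt had median deviations (log2 CPM) of -0.09, 0.40 and 0.03 in KO replicates 1 to 3. In WT replicates 1 to 3 these were -0.31, 0.13 and -0.14. The part of length in the estimates of the members was not tested. Without KO replicate 2, the library with muscle reads and the largest deviations by feature length, no member was called by edgeR. The log2 fold changes were then 0.31 for Snord14d, 0.33 for Snord14c, 0.08 for Snord14e and 0.38 for Snord14a. Without WT replicate 1 they were 0.33, 0.40, 0.11 and 0.19 in the same order, again with none called. With scaling factors taken only from features of 66 to 110 nt the log2 fold changes were 0.21 for Snord14c and 0.16 for Snord14d, and the median over every tested feature was -0.18.

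**Figure D3:**
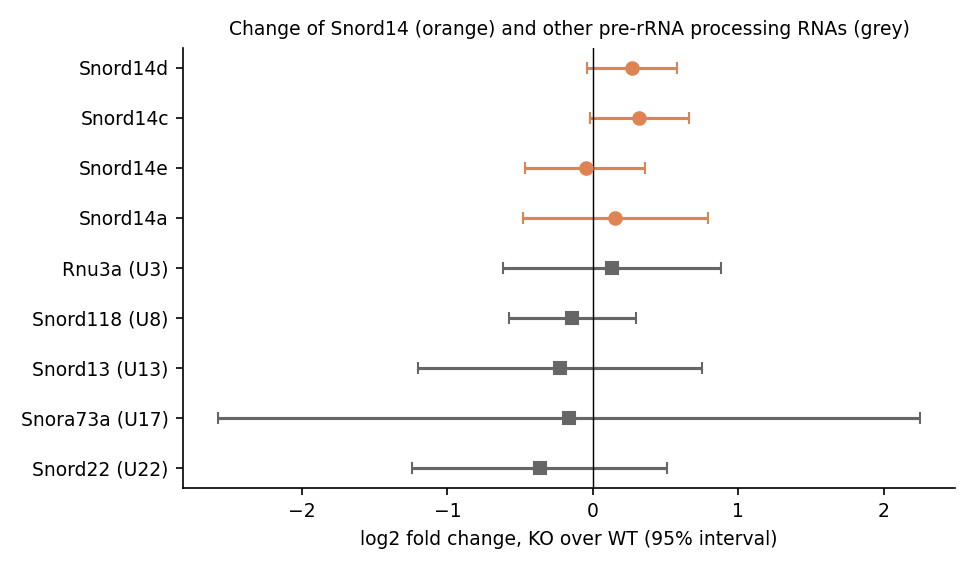
Log2 fold change of KO over WT with its 95% interval for the 4 Snord14 members (orange) and for 5 other RNAs of pre-rRNA processing (grey). Every interval includes 0.

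The order of the members was the same in every library: Snord14d, Snord14c, Snord14e, Snord14a. Per nt of length the mean over the 6 libraries was 7.61 CPM for Snord14d, 5.13 for Snord14c, 0.671 for Snord14e and 0.211 for Snord14a. By this measure they ranked 61st, 70th, 97th and 109th of the 141 tested snoRNAs of 66 to 110 nt, whose other members had a median of 5.06 CPM per nt and a maximum of 2310. Snord14d and Snord14c were thus near the median of their length class and Snord14e and Snord14a below it. The whole family took 0.108% to 0.139% of the counts of a KO library and 0.105% to 0.116% of those of a WT library. Summed over the members, the level was 1260.1 ± 160.2 CPM in KO and 1089.8 ± 58.6 CPM in WT libraries (SD, n = 3 each).

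Snord14e had a far lower level than the other 2 members of its host. Per nt, the highest Hspa8-hosted member was 11.3 times the lowest. Unequal levels within a host were common: in 14 protein-coding hosts with 3 or more tested snoRNAs of 66 to 110 nt, the ratio ran from 1.61 in Rack1 to 2890 in Rabggtb, with a median of 68.2, and 10 hosts had a larger ratio than Hspa8. Read levels of different snoRNAs are not molar amounts.

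Within a library, the ratio of Snord14d to Snord14c was nearly constant. It was 1.5, 1.41 and 1.47 in KO replicates 1 to 3, against 1.47, 1.54 and 1.52 in WT replicates 1 to 3. The genotypes overlapped, and the log2 ratio was 0.55 ± 0.05 in KO and 0.60 ± 0.03 in WT libraries (SD, n = 3 each; KO minus WT -0.05, exact permutation p = 0.3, adjusted over 2 tests p = 0.6). The share of family reads that came from Rps13, that is from Snord14a, was 2.18%, 1.10% and 1.34% in KO replicates 1 to 3, against 1.54%, 1.56% and 1.78% in WT replicates 1 to 3. Here too the WT range lay within the KO range (exact permutation p = 0.8, adjusted p = 0.8). The means were 1.54% ± 0.57 in KO and 1.63% ± 0.13 in WT libraries (SD, n = 3 each), a difference smaller than the spread among KO libraries.

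Snord14e was the member whose place in the family differed without overlap, a comparison chosen after its values were seen. It made up 5.20%, 3.99% and 4.70% of family reads in KO replicates 1 to 3, against 6.48%, 5.47% and 5.37% in WT replicates 1 to 3. All 3 KO values lay below all 3 WT values, with means of 4.63% ± 0.609 in KO and 5.77% ± 0.617 in WT libraries (SD, n = 3 each). For this share the exact permutation test gave p = 0.1, and 0.4 adjusted over the 4 members. The CPM of Snord14e itself overlapped between genotypes (log2 fold change -0.05), and Snord14c and Snord14d made up most family reads. The share therefore depends on their levels and does not show a fall of Snord14e. The ratio of Snord14d to Snord14e was 10.7, 13.9 and 11.9 in KO replicates 1 to 3, against 8.45, 10.3 and 10.4 in WT replicates 1 to 3. On the log2 scale it was 3.60 ± 0.19 in KO and 3.28 ± 0.17 in WT libraries, a difference of 0.32 (SD, n = 3 each). By the exact permutation test p was 0.1, the smallest that 3 libraries against 3 allow, and it was 0.3 adjusted over the 6 pairs of members, so the difference did not pass. Leaving out KO replicate 2 gave a difference of 0.22, and so did leaving out WT replicate 1. Snord14c to Snord14e behaved alike, with log2 ratios of 3.05 ± 0.24 in KO and 2.68 ± 0.14 in WT libraries (SD, n = 3 each), and this is not separate evidence because Snord14c and Snord14d are near-identical.

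**Figure D4:**
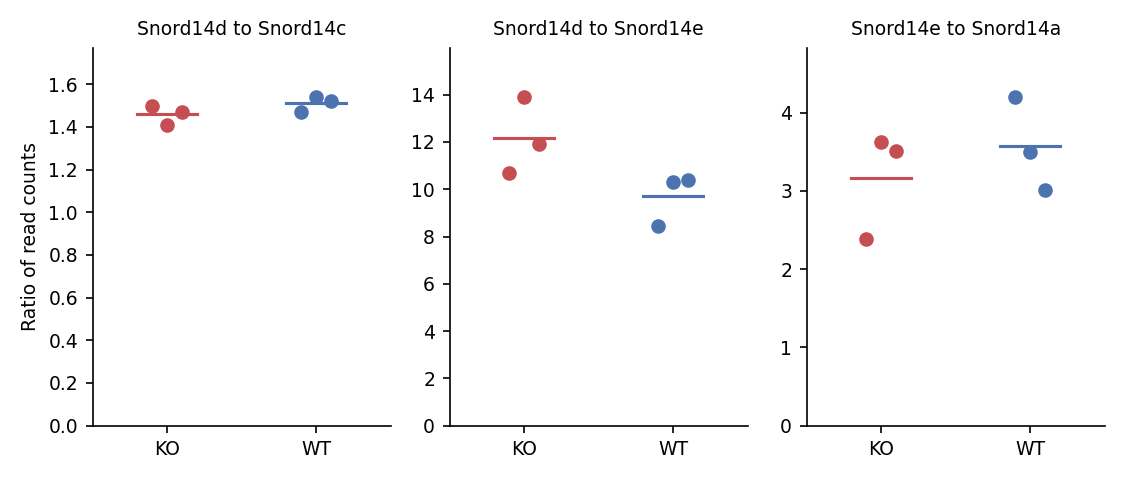
Ratio of read counts of Snord14d to Snord14c, Snord14d to Snord14e and Snord14e to Snord14a in each library (points; KO left of WT; line, mean of 3). The first ratio stays between 1.41 and 1.54, and in the second all KO points lie above all WT points.

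Across the 6 libraries Snord14d and Snord14c varied together (Pearson r = 0.99 on log2 CPM), while Snord14e (r = -0.30) and Snord14a (r = -0.06) did not follow Snord14d. The libraries share depth and scaling, and the correlations are descriptions over 6 points. Of 620 features outside the family, the 3 closest to Snord14d in pattern were mt-Tq, the mitochondrial tRNA for glutamine (r = 0.957), and the miRNA precursor regions Mir18 (r = 0.938) and Mir423 (r = 0.924). Like Snord14d, mt-Tq had its 2 highest values in KO replicates 2 and 3, at 17.7 and 16.9 CPM, against 12 CPM in KO replicate 1 and 11.2 to 15 CPM in WT libraries. Replicate spread was ordinary for the class. In the KO libraries the coefficient of variation was 11.5% to 24.3% over the members, against a median of 15.1% over the 137 others. In the WT libraries it was 5.41% to 13.6%, against a median of 13.1%.

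Other small RNAs that act on the rRNA precursor were taken from a list fixed by name, and none was called. All 15 features of the list were tested, and 0 were called by edgeR in either direction, at a background of 0.160% of the 624 features tested. Estimates in the KO libraries were higher for 2 and lower for 13 of the list, while 40.9% of all tested features were above 0. The median log2 fold change of the list was -0.10, against -0.08 for all tested features. The list holds 10 features of U3, the RNA that pairs with the precursor to direct cleavage around 18S. They belong to Rnu3a and to Rnu3b1, Rnu3b2, Rnu3b3 and Rnu3b4, each annotated more than once at 1 place, so they do not count as 10 RNAs. Their sequences were not compared, and the sharing of reads among them was not tested. The SE of the log2 fold change was 0.304 and 0.314 for the Rnu3a features and 0.87 to 0.911 for the Rnu3b features.

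Snord118 (U8), needed for maturation of the large-subunit rRNAs, had 38.9, 42.0 and 48.5 CPM in KO replicates 1 to 3, against 55.7, 47.2 and 46.1 CPM in WT replicates 1 to 3. The genotypes overlapped (edgeR, log2 fold change -0.14, SE 0.18, adjusted p = 0.819). Rnu3a (U3) had 55.7, 30.2 and 29.8 CPM in KO and 34.2, 36.5 and 40.8 CPM in WT libraries, and KO replicate 1 was the highest of the 6. Snora73a (U17), an H/ACA box snoRNA of 18S processing, varied most within the KO group, with 61.1, 3.07 and 8.92 CPM in KO and 16.0, 34.4 and 37.2 CPM in WT libraries. These 2 RNAs have 213 and 205 nt, in the range of 160 to 350 nt where the median deviation (log2) was 0.03 in KO replicate 1 and -0.64 in KO replicate 2. The part of RNA length in these values was not tested. Snord13 (U13), which guides acetylation of 18S rRNA, averaged 12.1 ± 5.97 CPM in KO and 14.8 ± 2.50 CPM in WT libraries, and Snord22 (U22), needed for 18S processing in frog oocytes, averaged 16.1 ± 6.43 CPM in KO and 21.8 ± 5.47 CPM in WT libraries (SD, n = 3 each). Per nt the Snord14d level of 7.61 CPM was above that of Snord118, at 0.344 CPM, and of the single Rnu3a feature, at 0.178 CPM. U3 reads fell on 10 features. These summed to 625, 112 and 150 CPM in KO replicates 1 to 3, against 228, 240 and 493 CPM in WT replicates 1 to 3. The means of the sum were 296 ± 286 CPM in KO and 320 ± 150 CPM in WT libraries (SD, n = 3 each). Since U3 features are annotated more than once at 1 place, the sum may count reads more than once, which was not tested. The libraries were cut from a gel by size, so levels of RNAs of unlike length cannot be compared as amounts.

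**Figure D5:**
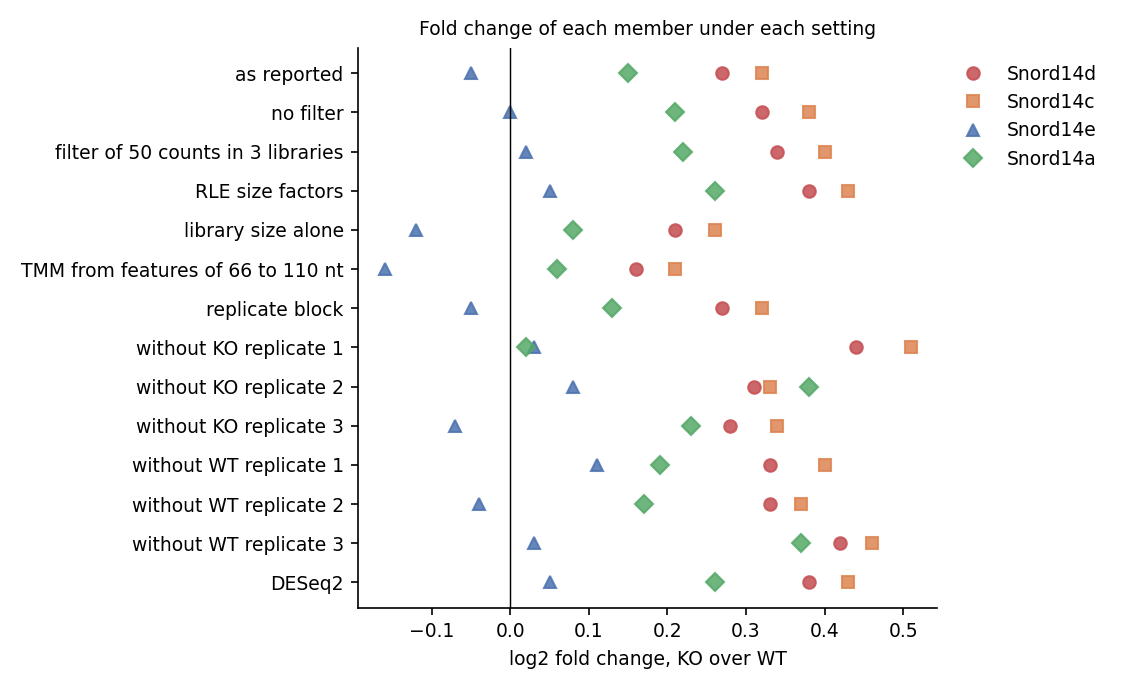
Log2 fold change of KO over WT of each member (x axis) under the reported settings and under 13 alternatives (y axis). Snord14c and Snord14d stay between 0.16 and 0.51, Snord14a stays above 0, and Snord14e lies on both sides of 0.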

How the data were processed

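Small RNAs of bone marrow cells were sequenced in 3 KO and 3 WT libraries, grouped and numbered by title. Per the labels' protocols, total RNA was taken with Trizol, libraries were made with an NEB small RNA kit, and PCR products of snoRNA size were cut from a gel. Per the submitters' processing notes, Trimmomatic 0.38, Bowtie2 2.3.4.1 and build GRCm38 were used; the counting tool, annotation, strand setting and treatment of reads with several matches are not stated there. Each deposited table holds raw read counts by feature, with no normalization recorded. Features without a read in a library do not appear in its table and were given 0.

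Of 1823 features, 1822 matched a GENCODE M21 gene at the same start and end. All 4 members matched GENCODE and RefSeq. The members and lists were chosen with earlier results of these data known. Every member was named, with the most read copy of each listed RNA of pre-rRNA processing (Rmrp, on that list, was not among the features) and the 3 features closest to Snord14d.

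Counts were tested with edgeR 4.0.16 in R 4.3.3 (quasi-likelihood, TMM, default filter with minimum count 10 and minimum total 15, genotype only, two-sided, Benjamini-Hochberg over all 624 features). SE is the size of the log2 fold change over the square root of F and is approximate, as are the 95% intervals. Intervals on counts cover counting error only, since PCR copies were not collapsed by molecular identifiers. Ratios within libraries were compared by two-sided exact permutation tests, which with 3 against 3 cannot go below 0.1. No replicates agreed within sampling noise (chi-square per degree of freedom 530 to 3308 over features with at least 20 counts). Alternatives were other filters, scalings and DESeq2 1.42.0, a replicate block, summing by host and leaving out each library.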

Additional observations from a re-analysis of the deposited data

How the results depend on the processing

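No alternative led to a call of a member: edgeR and DESeq2 gave 0 called in each. Snord14a, Snord14c and Snord14d kept positive log2 fold changes throughout, at 0.02 to 0.38, 0.21 to 0.51 and 0.16 to 0.44. Their adjusted p was 0.773 to 0.984, 0.193 to 0.969 and 0.198 to 0.969. At an unadjusted p under 0.05, Snord14c and Snord14d passed with the filter of 50 counts in 3 libraries (as did 5.71% of all tested features), with RLE size factors (7.53%), with DESeq2 (7.40%) and without KO replicate 1 (18.3%). Snord14e changed sign, to 0.02 with the filter of 50 counts in 3 libraries, to 0.05 with RLE size factors and to 0.05 with DESeq2, and it ranged from -0.07 to 0.11 with 1 library left out; the cause was not tested. With 1 library left out Snord14a ranged from 0.02 to 0.38, Snord14c from 0.33 to 0.51 and Snord14d from 0.28 to 0.44.

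With the 3 Hspa8 members summed to 1 feature the log2 fold change was 0.27 (SE 0.12). The Snord14d to Snord14c log2 ratio differed by -0.07 to -0.02 with 1 library left out, and the Rps13 share by -0.408 to 0.133 percentage points, turning positive without KO replicate 2 (0.133) or KO replicate 3 (0.014). Same-numbered libraries did not all deviate together (correlations -0.13, 0.40 and -0.36). The titles give them only a shared number. Deviations taken within groups of 3 libraries cannot decide whether they were prepared as pairs. With the replicate block the log2 fold changes were 0.13 for Snord14a, 0.32 for Snord14c, 0.27 for Snord14d and -0.05 for Snord14e, with none called, and 0 features of 624 were called in all, against 1 without it. The paired differences of the log2 ratio and of the share were -0.05 and -0.087. The Snord14d to Snord14e difference, added after the data were seen, was 0.22 to 0.41 with 1 library left out. With no filter edgeR called 13 features of 1823, none of them a member. The members had at least 742 reads in every library.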

Other observations

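The libraries also held reads assigned to the 45S pre-rRNA, a feature singled out after its values were seen. U14 acts on this precursor, but the 45S sequence includes those of the mature rRNAs. Fragments of precursor and of mature rRNA can therefore not be told apart here. These reads are of fragments within the gel-selected size range and do not measure the level of intact precursor. They were 3.70%, 3.26% and 3.88% of the counts in KO replicates 1 to 3, against 4.88%, 5.10% and 4.59% in WT replicates 1 to 3. All 3 KO libraries lay below all 3 WT libraries, with means of 3.61% ± 0.32 and 4.86% ± 0.25 (SD, n = 3 each). The log2 fold change was -0.36 (SE 0.08), not called by edgeR (adjusted p = 0.542), and p was 0.1 by the exact permutation test, the lowest possible with 3 against 3. Of the 624 features tested, 12.5% were lower in all KO than in all WT libraries.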
